A study of Mus musculus with 4 samples.

Results

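Transcripts of 9 circadian clock genes were measured on 4 arrays. The genes were named by role: the activators Arntl, Clock and Npas2, the repressors Per1, Per2, Per3, Cry1 and Cry2, the output factor Dbp and the repressor Bhlhe40. Of these 10 names, 9 had a row in the platform annotation, 1 row each, out of 19938 genes with a row of their own. Npas2 had none and was not analysed here. ICR mice received ketamine, an antagonist of NMDA glutamate receptors, by daily intraperitoneal injection at 30 mg/kg, or normal saline. By the methods, treatment began at 1 month of age and lasted 3 months. RNA labelled as from prefrontal cortex was put on Affymetrix Mouse Gene 1.0 ST arrays, which read a transcript through probes along its length, with 2 arrays in each of 2 groups. An array whose title says saline has ketamine in its source field, and the reverse holds too. The groups here follow the titles, and by the source field every sign would be turned. The labels give females and the methods males. The mice were killed after behavioural testing in a water maze, by the methods. The hour at which the mice were killed is not given in the sources used here.

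The clock of mammalian cells is a loop of transcription. ARNTL (also called BMAL1) pairs with CLOCK or with its relative NPAS2, binds E-boxes and activates the Per and Cry genes, whose proteins then block the pair. Side loops add to this: receptors of the ROR family activate Arntl and those of the REV-ERB family (Nr1d1, Nr1d2) repress it, both through ROR elements, while DBP activates and NFIL3 represses through D-boxes. Cells throughout the brain carry this loop, and the suprachiasmatic nucleus sets their phase.

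The labelled tissue was first compared with its markers. All 12 measured markers of cerebellar granule cells were higher on the arrays titled ketamine, and their mean log2 value was at most 6.60 on an array titled saline and at least 9.73 on an array titled ketamine. Of 10 measured markers of cortical projection neurons, 9 were lower, beside 9.71% of all rows, with means of 8.39 and 8.44 against 6.13 and 6.08. Tbr1, a transcription factor that defines such neurons, read 8.37 and 8.44 with saline in the title. On those titled ketamine it read 3.73 and 3.69, below the 95th percentile of 1035 olfactory receptor rows on any array (4.20 to 4.56), a level taken as background. Other lists differed too. All 7 measured striatal and all 7 microglial markers were lower, and of 8 interneuron markers 6 were lower and 1 higher. Of 7 choroid plexus markers 6 were higher and 0 lower, and of 7 astrocyte markers 3 were higher and 1 lower. Of 6 oligodendrocyte markers 0 passed, and of 6 endothelial ones 1 was lower. Treatment and tissue markers therefore cannot be told apart for any gene below. In such bulk tissue, fewer cells of a type and less RNA per cell cannot be told apart either. The 9 clock genes read between 5.65 and 8.95, above that background on every array.

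Cry1, Clock and Arntl were higher on the arrays titled ketamine, and no clock gene passed as lower. Cry1, a repressor of the loop, was 2.11-fold higher, Clock 1.43-fold and Arntl 1.35-fold (limma with Benjamini-Hochberg adjustment over all 21789 rows, called at an adjusted p under 0.05). The other 6 genes did not pass. At an unadjusted p under 0.05 there were 4 genes, Per3 added, all of them higher, beside 44.7% of all rows. Under either other scaling of the arrays, 6 genes were under it. Cry1, Clock and Arntl were the higher ones and Per1, Per2 and Cry2 the lower ones, while Per3 was not under it. Of 21789 rows, 9077 were under it after quantile normalization and 8969 after centring the arrays on their medians. With the values as deposited, 23.4% of all rows passed as higher and 9.71% as lower, 33.2% together, so that 3 of 9 is near the background. The median log2 difference of the 9 genes was 0.10 and that of all rows 0.13. Since this common shift depends on how the arrays are scaled, differences are also given relative to it. The same 3 genes were past 1.3-fold, the threshold of the study, with the values as deposited. After quantile normalization they were Cry1 and Clock as higher and Per1 as lower, and after centring Per2 was past it as lower too, while Arntl was not past it under either scaling. Over all rows 34.1% were past it, and 24.3% were past it as higher. The study reported far fewer genes past this threshold, and the reason was not tested. The groups did not overlap for 6 of the 9 genes, as for 69.9% of all rows. With 2 arrays against 2, an exact permutation test cannot go below p = 0.333 (two-sided).

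**Figure D1:**
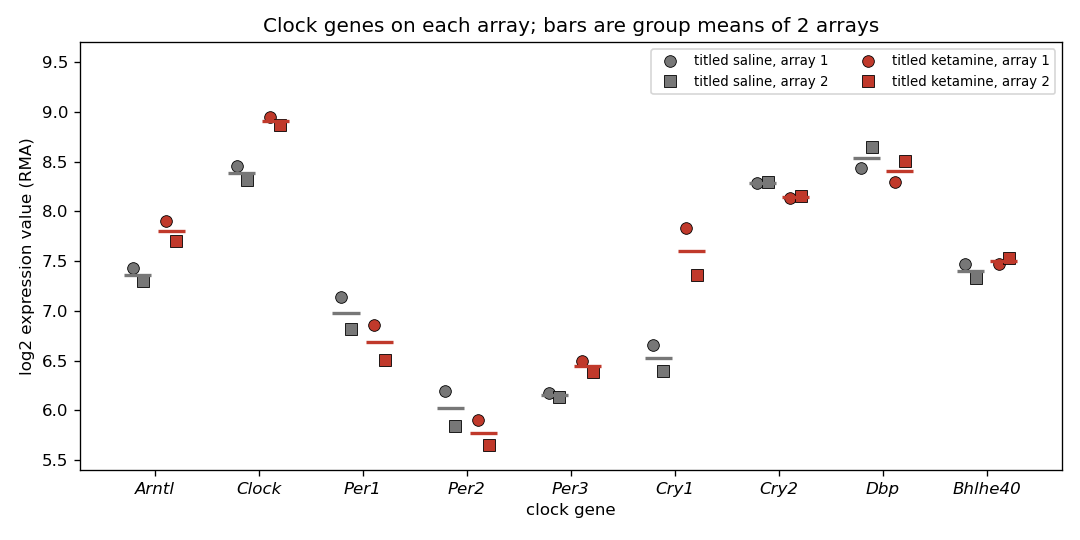
Log2 expression values (y axis) of 9 clock genes (x axis) on each of 4 arrays, grey where titled saline and red where titled ketamine, with circles for array 1, squares for array 2 and bars for group means. Cry1 moves from 6.66 and 6.39 (titled saline) to 7.84 and 7.36 (titled ketamine), while the groups overlap for Per1, Per2 and Dbp; levels of different genes come from different probes and are not comparable.

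Promoter sequence was searched, close to start sites only, for elements through which the loop acts and for 2 others. RefSeq windows (build GRCm38.p6) from 250 bases before to 50 bases after a start site were given for 7 of the 9 genes, 11 windows in all. They were searched on both strands for the E-box CACGTG, the D-box (TTATGTAA or TTACGTAA), the cAMP response element TGACGTCA, the consensus of the ROR element and that of the glucocorticoid element. Matches were found in 4 windows, which are printed below from 5′ to 3′ with the matches in capitals: Cry1 and Per1 each with an E-box, Arntl with a ROR element and Per3 with a pair of D-boxes.
Arntl: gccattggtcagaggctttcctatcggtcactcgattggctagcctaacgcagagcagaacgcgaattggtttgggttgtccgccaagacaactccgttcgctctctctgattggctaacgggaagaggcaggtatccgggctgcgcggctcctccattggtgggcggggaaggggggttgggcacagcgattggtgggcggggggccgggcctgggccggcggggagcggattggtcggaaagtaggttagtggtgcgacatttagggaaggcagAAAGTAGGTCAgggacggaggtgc
Cry1: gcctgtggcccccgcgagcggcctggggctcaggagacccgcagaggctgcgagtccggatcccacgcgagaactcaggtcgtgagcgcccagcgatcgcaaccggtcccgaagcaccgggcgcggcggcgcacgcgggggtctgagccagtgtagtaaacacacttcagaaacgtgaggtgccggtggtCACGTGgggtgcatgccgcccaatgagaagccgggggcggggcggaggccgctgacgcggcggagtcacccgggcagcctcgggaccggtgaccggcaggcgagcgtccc
Per1: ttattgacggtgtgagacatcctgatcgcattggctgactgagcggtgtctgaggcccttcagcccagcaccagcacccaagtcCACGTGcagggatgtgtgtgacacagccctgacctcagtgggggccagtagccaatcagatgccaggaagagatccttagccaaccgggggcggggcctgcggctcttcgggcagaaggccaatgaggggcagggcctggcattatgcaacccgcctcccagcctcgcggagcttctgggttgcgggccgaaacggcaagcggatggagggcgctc
Per3: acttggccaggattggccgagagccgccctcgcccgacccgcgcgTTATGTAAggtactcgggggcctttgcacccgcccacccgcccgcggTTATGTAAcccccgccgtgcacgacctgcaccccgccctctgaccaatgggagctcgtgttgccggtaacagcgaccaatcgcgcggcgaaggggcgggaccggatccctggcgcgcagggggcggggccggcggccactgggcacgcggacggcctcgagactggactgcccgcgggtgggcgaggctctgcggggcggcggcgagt
The Arntl window lies at chr7:113207261-113207560 on the plus strand and belongs to 1 of 2 start sites, and its ROR element reads AAAGTAGGTCA from base 277. The windows of both Arntl start sites also hold AAAGTAGGTTA, which is 1 base off the consensus and was not counted as a match. The Cry1 window is chr10:85185005-85185304 on the minus strand, with its E-box from base 191. The Per1 window is chr11:69098699-69098998 on the plus strand, 1 of 2 start sites, with its E-box from base 85. The Per3 window is chr4:151044616-151044915 on the minus strand, with D-boxes from bases 46 and 93. No match overlapped another. Among all 32851 windows of the table, 7.15% held an E-box, 1.06% a D-box and 0.384% a ROR element. The cAMP response element (1.79% of all windows) and the glucocorticoid element (0.00913%) had no match in the 11 windows. The 3 windows of Clock and those of Cry2 and Dbp held no match of any motif. Sequence outside the windows was not searched. A match is a run of letters and no measure of binding.

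Both measured activators were higher on the arrays titled ketamine. Arntl encodes the partner without which the E-box complex does not form. It read 7.43 and 7.30 on the arrays titled saline and 7.90 and 7.70 on those titled ketamine. The groups did not overlap, with a gap of 0.27 between them. The log2 difference of Arntl was 0.44 (standard error 0.121, adjusted p = 0.0308 from limma), or 0.30 relative to the median row. The call on Arntl was lost when the arrays were quantile normalised (0.30, adjusted p = 0.0906) or centred on their medians (0.30, adjusted p = 0.106), and without any 1 of the 4 arrays (differences from 0.34 to 0.54, adjusted p from 0.0704 to 0.218).

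Clock, which encodes the DNA-binding partner of ARNTL, read 8.46 and 8.32 on the arrays titled saline and 8.95 and 8.87 on those titled ketamine. The groups were apart by more than the arrays within either of them. The log2 difference of Clock was 0.52 (standard error 0.112, adjusted p = 0.0124 from limma), or 0.39 relative to the median row. It passed under both scalings, at 0.40 after quantile normalization and 0.38 after centring. Without titled saline array 1 it was 0.59 (adjusted p = 0.0375). Without titled saline array 2, titled ketamine array 1 or titled ketamine array 2 it was 0.45, 0.48 and 0.56, with adjusted p = 0.0655, 0.172 and 0.141. No row of the whole table passed without either array titled ketamine.

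Of the 2 CRY genes, Cry1 was higher and Cry2 did not pass. CRY1 and CRY2 proteins are the strongest inhibitors of the activator pair. Cry1 read 6.66 and 6.39 on the arrays titled saline and 7.84 and 7.36 on those titled ketamine. Both arrays titled ketamine were above both titled saline, although they differed from each other by 0.47. The log2 difference of Cry1 was 1.07 (standard error 0.177, adjusted p = 0.00420 from limma), or 0.94 relative to the median row. Only 3.05% of all rows had a larger positive difference. It passed under both scalings (0.93 and 0.94) and without titled saline array 1 (1.21, adjusted p = 0.0357). It did not pass without titled saline array 2 (0.94, adjusted p = 0.0590), titled ketamine array 1 (0.84, adjusted p = 0.161) or titled ketamine array 2 (1.31, adjusted p = 0.118).

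Cry2 read 8.29 on both arrays titled saline and 8.13 and 8.15 on those titled ketamine. These were the closest replicates of any clock gene, and the groups did not overlap. The log2 difference of Cry2 was -0.15 (95% interval -0.39 to 0.10, adjusted p = 0.307 from limma), where limma draws so small a spread towards that of all rows. The difference between Cry1 and Cry2 within an array, in which a scaling constant cancels, was -1.63 and -1.90 on the arrays titled saline and -0.30 and -0.79 on those titled ketamine. It shifted by 1.22 on the log2 scale, and its groups did not overlap, as for 69.9% of all rows taken singly. This shift was not tested.

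The 3 PER genes, whose proteins carry the CRY proteins into the nucleus, did not pass. Per1 read 7.14 and 6.82 on the arrays titled saline and 6.86 and 6.51 on those titled ketamine. The groups of Per1 overlapped, with 0.32 between the arrays titled saline and 0.36 between those titled ketamine. The log2 difference of Per1 was -0.30 (95% interval -0.68 to 0.09, adjusted p = 0.203 from limma). Per2 read 6.20 and 5.84 on the arrays titled saline and 5.90 and 5.65 on those titled ketamine. The groups of Per2 overlapped as well, and the log2 difference was -0.24 (95% interval -0.61 to 0.12, adjusted p = 0.264 from limma). Relative to the median row, Per1 stood at -0.43 and Per2 at -0.38. Centred arrays gave an adjusted p = 0.0742 for Per1 and 0.0961 for Per2.

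Per3 went the other way. It read 6.17 and 6.14 on the arrays titled saline and 6.50 and 6.39 on those titled ketamine. The groups did not overlap, but the log2 difference of 0.29 (95% interval 0.04 to 0.55, adjusted p = 0.0769 from limma) did not pass over all rows. Of the alternatives it passed only in a fit of the brighter rows, those whose mean reached the median of all rows (adjusted p = 0.0365), and shrank to 0.14 and 0.16 under the other scalings. The difference between Per1 and Per2 within an array stayed between 0.85 and 0.98 on all 4 arrays, the groups overlapping, whereas that between Per1 and Per3 was 0.97 and 0.69 on the arrays titled saline and 0.36 and 0.12 on those titled ketamine. That between Per2 and Per3 was 0.03 and -0.29 against -0.60 and -0.74. Both comparisons with Per3 had groups that did not overlap, shifted by -0.59 and -0.53. Since both share Per3, they are not separate results, and neither shift was tested. Groups of single rows did not overlap for 69.9% of all rows, and no such share was computed for differences between genes.

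**Figure D2:**
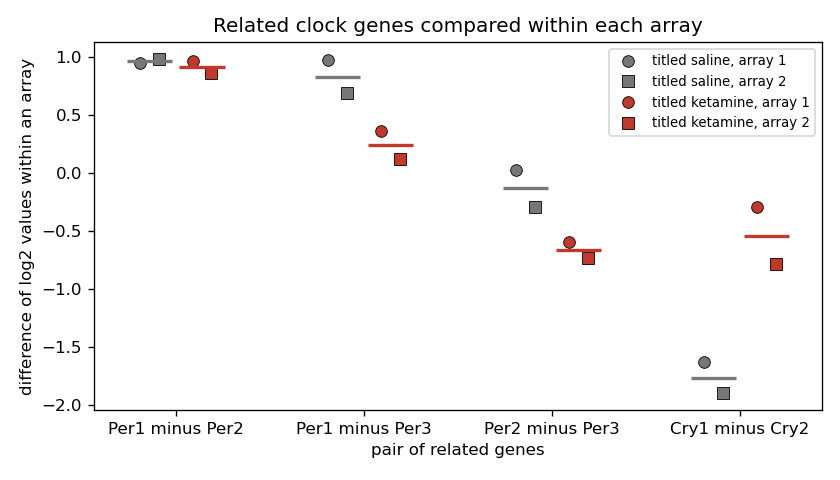
Differences of log2 values within an array (y axis) for 4 pairs of related clock genes (x axis), grey where titled saline and red where titled ketamine, with circles for array 1, squares for array 2 and bars for group means. Cry1 minus Cry2 shifts from -1.63 and -1.90 to -0.30 and -0.79, while Per1 minus Per2 stays between 0.85 and 0.98; only the shift between arrays is readable, since the level of a difference depends on the probes.

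Per1 and Per2 are also known as genes that respond to neuronal activity. Of 13 immediate early genes, which mark such activity, 8 were lower and 2 higher on the arrays titled ketamine, beside 9.71% and 23.4% of all rows, with a median log2 difference of -0.72. Their mean log2 value was 6.65 and 6.31 on the arrays titled saline and 6.14 and 5.81 on those titled ketamine. In both groups this list thus read lower on array 2 than on array 1. So did 6 of the 9 clock genes, Per1, Per2, Per3, Cry1, Arntl and Clock. Over all rows, arrays 1 and 2 differed the same way in both groups, up or down, for 48.9%. Npas4 and Egr1, both transcription factors of this list, had differences of -1.38 and -1.28. Npas4 was at background level on titled ketamine array 2, at 4.35. Of the 13 genes, 4 had a positive difference, and Btg2 and Ier2, at 0.68 and 0.42, were the 2 that passed as higher. The part of the immediate early genes in the values of Per1 and Per2 was not tested.

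Dbp, a D-box activator that follows the clock closely in many tissues, read 8.44 and 8.64 on the arrays titled saline and 8.30 and 8.51 on those titled ketamine. The groups overlapped, and the log2 difference of Dbp was -0.14 (95% interval -0.44 to 0.16, adjusted p = 0.440 from limma). Bhlhe40, which encodes the E-box repressor DEC1, read 7.47 and 7.34 on the arrays titled saline and 7.47 and 7.53 on those titled ketamine. Its groups were only 0.0013 apart. The log2 difference of Bhlhe40 was 0.10 (95% interval -0.16 to 0.36, adjusted p = 0.524 from limma), and its sign turned under both other scalings.

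Beyond these 9 genes, 24 other clock pathway genes were listed by role, and 22 had a row. Of these, 6 were higher (Rora, Nr1d2, Nfil3, Cipc, Timeless and Fbxw11), 3 lower (Rorb, Hlf and Csnk1e) and 13 did not pass, or 9 of 22 beside 33.2% of all rows. Their median log2 difference was 0.09, against 0.13 for all rows. The calls on Timeless and Fbxw11 were lost under both other scalings.

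Rora and Rorb, 2 of the receptors that act on Arntl through ROR elements, had the largest differences of these 22 genes, in opposite directions. Rora, an activator that is also abundant in Purkinje cells, read 8.25 and 8.13 on the arrays titled saline and 9.48 and 9.26 where titled ketamine, with a log2 difference of 1.18 (standard error 0.123, adjusted p = 0.000614 from limma). Rorb, its relative and a marker of cortical layer neurons, read 8.03 and 7.98 against 6.91 and 6.998, a log2 difference of -1.05 (standard error 0.107, adjusted p = 0.000558 from limma). The groups did not overlap for either gene, as for 69.9% of all rows. Rora is itself on the list of Purkinje cell markers, of which 6 of 6 measured were higher. Rorb is itself on that of cortical projection neurons, of which 9 of 10 measured were lower. Over all rows 23.4% passed as higher and 9.71% as lower. The part of cell types in the differences of Rora and Rorb was not tested. Of the REV-ERB repressors, Nr1d2 read 9.27 and 9.09 on the arrays titled saline and 9.66 and 9.71 where titled ketamine, with a log2 difference of 0.51 (adjusted p = 0.0142 from limma). Nr1d1 read 9.08 and 9.32 against 9.23 and 9.39. Its groups overlapped, and its difference of 0.11 did not pass (adjusted p = 0.556 from limma).

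Among the factors of the D-box, Nfil3, the repressor, was higher and Hlf, an activator, lower. Nfil3 read 5.98 and 5.96 on the arrays titled saline and 6.61 and 6.38 where titled ketamine, with a log2 difference of 0.53 (adjusted p = 0.0152 from limma). Hlf read 8.73 and 8.64 against 8.01 and 8.10, a log2 difference of -0.64 (adjusted p = 0.00490 from limma). Their groups did not overlap. Tef, the third activator beside Dbp and Hlf, had a difference of -0.18 that did not pass.

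Of 9 measured kinases, ligases and other enzymes that set the life of PER, CRY and REV-ERB proteins, 1 was higher and 1 lower, beside 33.2% of all rows that passed. Csnk1e, a casein kinase that phosphorylates PER proteins, read 8.85 and 8.77 on the arrays titled saline and 8.40 and 8.37 where titled ketamine, with a log2 difference of -0.42 (adjusted p = 0.0216 from limma). Csnk1d, its close relative, had a difference of -0.01 (95% interval -0.25 to 0.24). Fbxw11 and Btrc, the β-TrCP proteins that mark PER for breakdown, had differences of 0.44 and -0.34, of which the second did not pass (adjusted p = 0.0589) except after either scaling, with a trend in the spread or among the brighter rows. Cipc, a CLOCK-binding inhibitor, and Timeless, the relative of a fly clock gene, were higher by 0.50 each. Bhlhe41, the relative of Bhlhe40, had a difference of 0.22 that did not pass. Ciart, a repressor of the pair, had 2 rows, at 0.10 and 0.02, and Fbxw7, a ligase that acts on REV-ERB, 2 rows at -0.21 and 0.47, the latter at background level on all 4 arrays; none of these passed. Without titled saline array 1, Csnk1e, Fbxw11, Nfil3 and Timeless lost their calls. Without titled saline array 2, Csnk1e, Fbxw11, Nfil3, Cipc and Nr1d2 did.

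**Figure D3:**
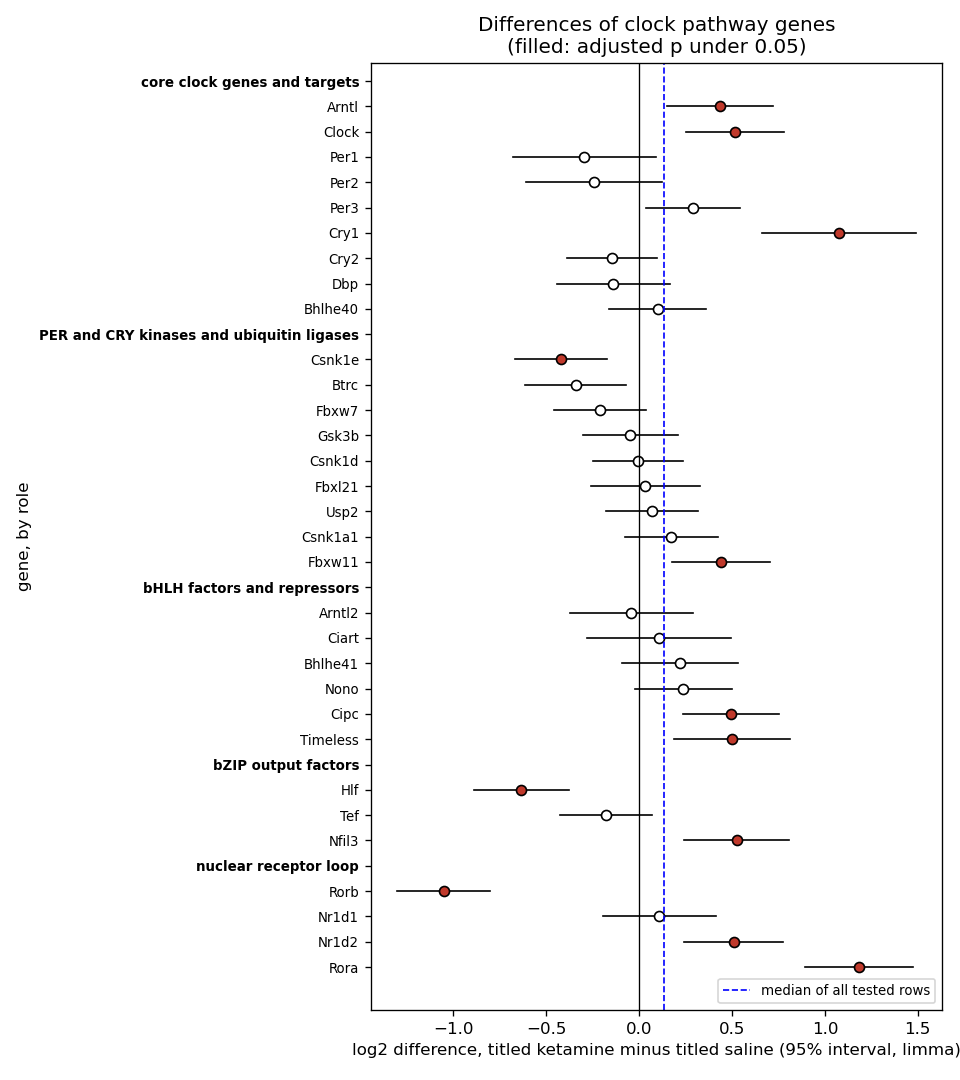
Log2 differences, titled ketamine minus titled saline (x axis), of 9 clock genes and 22 other genes of the pathway grouped by role (y axis), with 95% intervals from limma as lines and filled points where the adjusted p was under 0.05. Rora at 1.18, Cry1 at 1.07 and Rorb at -1.05 lie farthest from 0; the dashed line is the median of all rows, 0.13.

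The genes were also read by phase. In mouse tissues, transcripts of the Per genes, Dbp, Nr1d1, Nr1d2, Tef, Hlf, Bhlhe41, Ciart and Usp2 are known to peak in 1 part of the day, and those of Arntl, Clock, Npas2 and Nfil3 in about the opposite part. Of the first list, 11 were measured: 1 was higher (Nr1d2), 1 lower (Hlf) and 9 did not pass, with a median log2 difference of 0.07. Of the second, 3 were measured and all 3 passed as higher, with a median of 0.52. Over all rows 23.4% passed as higher and 9.71% as lower, with a median of 0.13. Arntl lost its call under other scalings, and all 3 calls depended on which arrays were kept, as given above. Arntl and Clock are among the clock genes already called above, so this list is no separate result. The difference between the 2 lists was not tested. Cry1, which peaks later than the Per genes in many tissues, was in neither list.

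**Figure D4:**
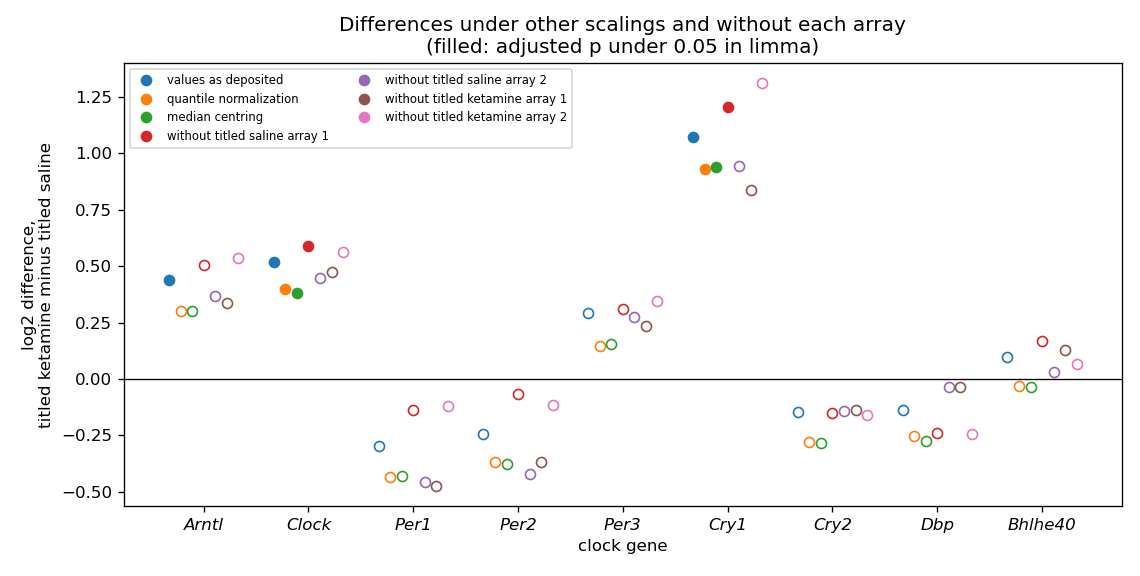
Log2 differences, titled ketamine minus titled saline (y axis), of the 9 clock genes (x axis) with the values as deposited, under 2 other scalings and without each array, filled where the adjusted p from limma was under 0.05. Cry1 stays between 0.84 and 1.31, Clock between 0.38 and 0.59 and Arntl between 0.30 and 0.54, while Bhlhe40 changes sign.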

How the data were processed

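Total RNA of 4 samples was measured on 1-colour arrays. The deposited log2 values come from RMA, run by the authors in Affymetrix Expression Console on core exons, which corrects background, normalises between arrays and gives 1 value per transcript cluster. Its version, like the build, is not given in the sources used here. RMA compresses low values and partly removes a shift shared by most genes. Of 35556 rows, 21789 carried exactly 1 symbol in the platform annotation and were tested together by limma (version 3.58.1, R version 4.3.3; lmFit, eBayes, no trend), two-sided, with Benjamini-Hochberg adjustment. The code was tested on simulated data. A gene with several rows stands by the row with the highest mean. The number of arrays limits the precision, with tissue from 2 mice of each treatment by the series' design text and no technical replicates. Symbols of all 9 genes matched RefSeq by gene number. Promoter windows come from RefSeq.

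The clock genes, the lists and the tests were chosen with earlier results of these data known. Every clock gene is named; of the other pathway genes, those with the largest called differences and 10 fixed names; of marker lists, up to 2 genes with the largest difference. Btrc, Fbxw7, Ciart, Tsc22d3, Btg2 and Ier2 were added with their values in view. Alternatives were 2 scalings, a filter on low rows, all rows with a symbol, the mean of a gene's rows, 2 forms of moderation, a replicate block and each array left out. Protein comparisons were not made.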

Additional observations from a re-analysis of the deposited data

How the results depend on the processing

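The direction of every clock gene was kept under all alternatives except that of Bhlhe40, which was -0.034 after quantile normalization and -0.037 after centring. Of 3 clock genes called higher, 2 passed after either scaling, and 4 (Per3 added) among the brighter rows, a filter that left out Per2. With each array left out, the number called higher ranged from 0 to 2, that of other pathway genes called higher from 0 to 3 and lower from 0 to 2. Without titled ketamine array 1 or array 2 limma called 0 rows of 21789, with 5974 and 6461 at an unadjusted p under 0.05. A lone array is there assumed to vary like those of the other group, and a call lost in this way is no sign of equal levels. After centring, 5 other pathway genes were lower (Btrc and Fbxw7 added). Over all rows, 5109 were higher and 2115 lower with the values as deposited, 3210 and 3213 after centring, and 3311 and 3074 after quantile normalization. The cause of these changes was not tested. With the replicate number as a block, 3 clock genes were again called higher and 0 lower, and 8250 rows in place of 7224. Deviations of same-numbered arrays correlated at 0.03 over all rows. Arrays 1 and 2 differed the same way in both groups for 48.9% of all rows, but for 8 of 9 clock genes. Array 1 was above array 2 in 6 of these clock genes and below it in 2. Whether same-numbered arrays share more than a number was not tested. No depth or detection call was used here, and the level of olfactory receptor rows stands in for background.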

Other observations

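Of 9 genes of the suprachiasmatic nucleus, the seat of the central clock, 2 passed as higher and 4 as lower in the group titled ketamine, with a median log2 difference of -0.25; over all rows 23.4% passed as higher and 9.71% as lower, with a median of 0.13. For 6 of the 9, at least 1 array read below the 95th percentile of the olfactory receptor rows. Vip, a peptide of that nucleus that cortical interneurons also make, read 6.49 and 6.36 on the arrays titled saline and 4.25 and 4.55 on those titled ketamine. Lhx1, a transcription factor that Purkinje cells also express, read 4.65 and 4.92 against 6.74 and 6.72.

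Per1 is known as a target of glucocorticoids. Of 9 measured genes that respond to these hormones, 1 was higher, 2 were lower and 6 did not pass, with a median of 0.26. These 3 of 9 stand beside 33.2% of all rows that passed and a median of 0.13. Fkbp5, a chaperone of the glucocorticoid receptor, and the transcription factor gene Zbtb16 had log2 differences of -1.25 and -1.21, and Tsc22d3, which encodes the protein GILZ, one of 0.73.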
